A study of Mus musculus with 12 samples.

Results

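The response to CT99021 was measured in ventral midbrain neurospheres, grown from embryos of CD-1 mice at stage E11.5, by setting the 6 libraries that had received CT99021 against the 6 that had not. All 12 libraries of the series entered the comparison. They were chosen by treatment label alone, without regard to any measured value. The libraries with CT99021 were 3 from spheres given CT99021 and 3 from spheres given GW3965 and CT99021 together. The libraries without it were 3 controls in the vehicle DMSO and 3 from spheres given GW3965. Spheres had been expanded for 3 days and were exposed for 5 h in N2 medium. The 2 settings in which CT99021 was added, vehicle and GW3965, are called backgrounds below. Spheres are mixed cultures of progenitors and their early progeny, and each library is a bulk sample, so that a fall in a transcript cannot be told apart from a loss of the cells that carry it. The labels do not say whether replicate numbers stand for cultures, litters or days, and the spread behind each p-value is that among these libraries, part or all of which may be technical.

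CT99021, also called CHIR99021, inhibits glycogen synthase kinase 3. In unstimulated cells this kinase works with Axin and APC to mark beta-catenin for destruction, and when it is blocked beta-catenin accumulates and acts in the nucleus with the Tcf/Lef family of DNA-binding factors. Many genes that this complex switches on encode inhibitors of the same pathway, such as Axin2 and Notum. The kinase also phosphorylates glycogen synthase, Myc and several other regulators of growth and metabolism, and the insulin pathway restrains it through AKT. GW3965 activates the liver X receptors, nuclear receptors of sterol metabolism.

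Gene totals ran from 9646424 to 21314093 counts per library. Levels are CPM, each count relative to its library total after scaling by edgeR's TMM factors (trimmed mean of M values), and are not corrected for gene length, so they compare libraries and not genes. A single gene, Lars2, which encodes the leucyl-tRNA synthetase of mitochondria, held 7.95% of gene counts in CT99021 replicate 1, against 0.0336% to 0.142% elsewhere. The replicate number separated libraries strongly, and every fold change below was fitted with it as a term. The tissue label was checked on marker lists. Neural progenitor markers summed to 2566 to 3523 CPM in libraries with CT99021 and 2775 to 4365 CPM in those without, and 5 ventral midbrain markers to 272 to 492 CPM and 327 to 536.5 CPM. No gene of these lists was at 0 in all libraries. Erythroid markers summed to 2180 to 8075 CPM with CT99021 and 1919 to 10520 CPM without, and none of the 4 tested erythroid genes passed the test.

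Across 15608 genes tested, 5656 passed at a Benjamini-Hochberg adjusted p under 0.05 in edgeR's quasi-likelihood test (36.2%). Of these, 3065 rose with CT99021 (19.6% of genes tested) and 2591 fell (16.6%). Which direction was called more often depended on scaling and filtering: with Lars2 left out of library sizes 2591 rose and 2995 fell, and with no filter on low counts 2575 rose and 2598 fell. Most shifts were small. The median size among called genes was 0.36 on the log2 scale, and 111 genes rose and 236 fell by at least 1 log2 unit. Among the called genes 4277 (75.6%) moved in 1 direction in all 6 replicate pairs, a pair being the libraries with and without CT99021 of 1 background and replicate number; among all genes tested that share was 34%. The higher share among called genes is not separate support for the calls, since the test drew on these same pairs. The calls rest on the replicate term. Without it 456 genes rose (2.92%) and 512 fell (3.28%), and all 968 were also called in the same direction with it. The arms of 6 libraries did not overlap at all for 270 genes that were higher (1.73%) and 534 that were lower (3.42%).

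The response was then asked for in each background by itself. CT99021 against control called 2470 genes (15.8%) and GW3965+CT99021 against GW3965 called 3216 (20.6%). These contrasts share no library, although they come from 1 fit and share its estimate of spread. A total of 1893 genes (12.1%) passed the main effect and both contrasts in the same direction, 1032 higher (6.61%) and 861 lower (5.52%). With Lars2 left out of library sizes these were 825 higher and 1007 lower, and with no filter 730 and 836. They made up 76.6% of the calls against control and 58.9% of the calls against GW3965, and 0 genes were called in opposite directions. Over all genes tested, log2 fold changes in the 2 backgrounds had a Pearson r of 0.667 and a Spearman rho of 0.688, across genes, which are not independent replicates. A test of the difference between backgrounds called 0 genes in edgeR, DESeq2 and limma-voom, and in edgeR 522 genes had an unadjusted p under 0.05. A missing call does not show that a gene responds alike in both. Of the genes called in the main effect, 2074 passed in neither background by itself.

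**Figure D1:**
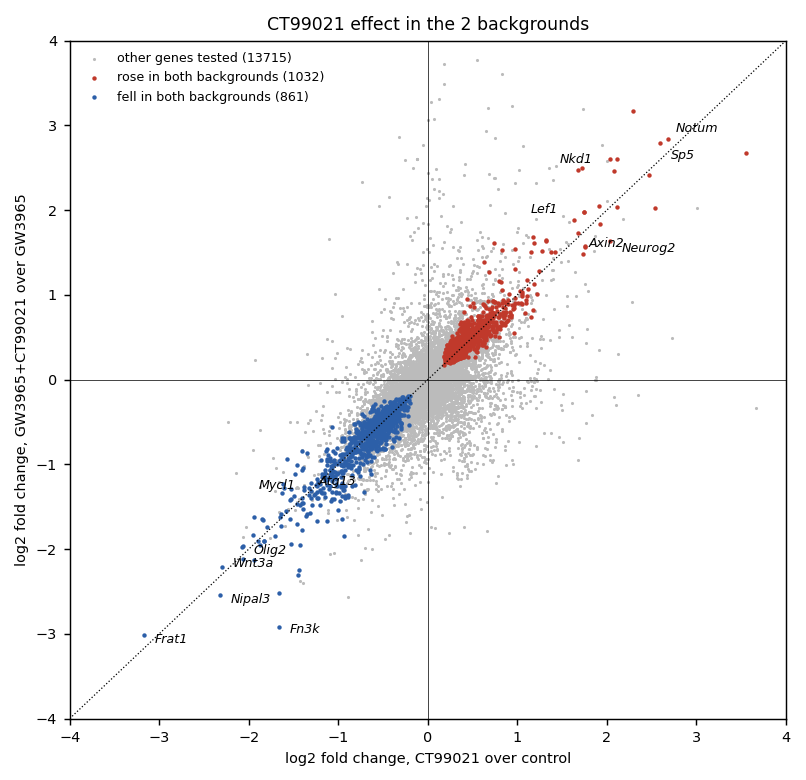
Each point is 1 of the 15608 genes tested, with its log2 fold change for GW3965+CT99021 over GW3965 on the vertical axis and for CT99021 over control on the horizontal axis. The 1032 genes that rose in both backgrounds are red and the 861 that fell are blue. Notum, Sp5 and Nkd1 lie far out along the dotted line of equal change at the upper right and Frat1 and Nipal3 at the lower left; 11 genes fall outside the axes.

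Counts over both backgrounds depend on single libraries more than the main effect does. Leaving out 1 library at a time gave 596 to 2087 genes in both backgrounds, and 4517 to 5912 in the main effect. Among libraries with CT99021, the count in both backgrounds was 950 and 985 when CT99021 replicates 2 and 1 were omitted, and 1165 when GW3965+CT99021 replicate 2 was. Among libraries without it, the count was 596 and 681 when Control replicates 2 and 1 were omitted, and 1008 and 1030 for GW3965 replicates 2 and 1. Statements below on both backgrounds hold for the fit to all 12 libraries.

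Several of the largest rises were in genes known to restrain Wnt signalling. Of 26 tested members of a list of Wnt feedback genes and antagonists, 13 rose (50%, beside 19.6% of all genes) and 2 fell (7.69%, beside 16.6%), and 9 rose in both backgrounds. The median log2 fold change of the list was 0.35, beside 0.02 over all genes tested. Without the replicate term 4 rose and 0 fell. Beyond the genes described next, Tnfrsf19, Nkd2, Rnf43, Apcdd1 and Znrf3 were among the 9, with log2 fold changes of 1.86, 1.48, 1.44, 0.67 and 0.65; Rnf43 and Znrf3 encode ubiquitin ligases that remove Wnt receptors from the cell surface.

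Notum encodes a secreted enzyme that strips the lipid from Wnt proteins (chromosome 11, listed position 120515102 of mm9). Its level was 8.52, 48.6 and 109 CPM (lowest, median, highest) in libraries with CT99021 and 1.35, 7.61 and 17.1 CPM in libraries without. The libraries numbered 3 were the lowest of each arm and made the arms overlap, yet Notum was higher in all 6 pairs. The log2 fold change was 2.76 ± 0.11 (SE, 6.77-fold, edgeR adjusted p = 1.36e-07), and in the separate backgrounds 2.84 ± 0.17 over GW3965 and 2.68 ± 0.16 over control. Notum did not pass without the replicate term (adjusted p = 0.0524).

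Axin2, a scaffold of the beta-catenin destruction complex and a common readout of Wnt activity, had 84.8, 249 and 369 CPM with CT99021 and 28.0, 74.2 and 112 CPM without. It rose by 1.70 ± 0.09 on the log2 scale (adjusted p = 8.33e-07). Its pair differences were narrow, from 1.26 to 1.78. Nkd1, an antagonist that binds Dishevelled, had 100, 368 and 510 CPM with CT99021 and 25.7, 68.4 and 97 CPM without, with no overlap, and rose by 2.27 ± 0.15 (adjusted p = 3.4e-06). Dkk4, a secreted antagonist, was nearly silent without the compound: 145 reads lay over the 6 libraries with CT99021 and 1 read over the 6 without. Dkk4 was named after its values were seen.

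**Figure D2:**
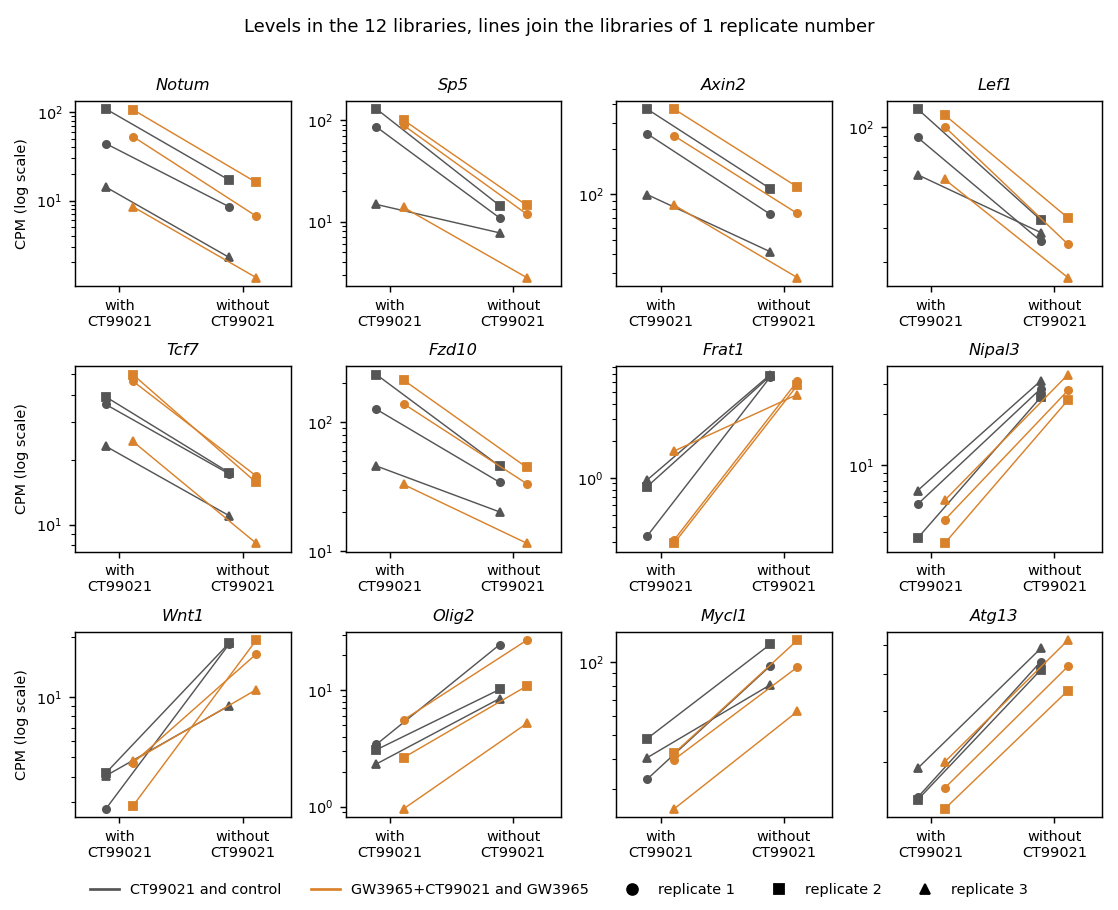
CPM on log axes for 12 genes in the 12 libraries, with libraries that received CT99021 on the left of each panel and those that did not on the right; grey lines join CT99021 to control and orange lines GW3965+CT99021 to GW3965 of the same replicate number. Every line falls from left to right in Notum, Sp5, Axin2, Lef1, Tcf7 and Fzd10 and climbs in Frat1, Nipal3, Wnt1, Olig2, Mycl1 and Atg13, and the libraries numbered 3 are the lowest of each arm for Notum, Sp5, Axin2 and Fzd10.

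Among 34 tested Wnt receptors and transducers, 9 rose (26.5%) and 4 fell (11.8%), with a median of -0.0043. Fzd10, a Frizzled receptor, had 32.9, 132 and 234 CPM with CT99021 and 11.51, 33.8 and 45.6 CPM without, and rose by 1.98 ± 0.16 (adjusted p = 1.37e-05). Ror2, a co-receptor for Wnt5a, rose by 1.33 ± 0.17 (adjusted p = 0.000192). The kinase's own transcript did not pass: Gsk3b had 300, 329 and 365 CPM with CT99021 and 325, 330 and 353 CPM without, a log2 fold change of 0.04 ± 0.06 (adjusted p = 0.601). Ctnnb1, which encodes beta-catenin, had a log2 fold change of 0.03 ± 0.05 (adjusted p = 0.685).

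The largest fall among the named genes was that of Frat1 (chromosome 19, listed position 41904359), which encodes a GSK3-binding protein that keeps the kinase from Axin. It had 0.293, 0.590 and 1.65 CPM with CT99021 and 4.77, 6.37 and 6.93 CPM without. The arms lay far apart. Frat1 fell by 3.10 ± 0.31 on the log2 scale (8.55-fold lower, adjusted p = 4.4e-05), with 61 reads over the 6 libraries with CT99021 and 619 over the 6 without. Its relative Frat2 fell too, by 1.59 ± 0.17, but did not pass without the replicate term.

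Of 16 tested Wnt ligands 2 rose and 5 fell (12.5% and 31.2%). Wnt1, the ligand of the midbrain-hindbrain boundary and dorsal midline, had 2.76, 4.10 and 4.78 CPM with CT99021 and 9.05, 17.4 and 19.3 CPM without. Every library with the compound was below every library without it. Wnt1 fell by 1.89 ± 0.20 (adjusted p = 5.75e-05), Wnt3a by 2.26 ± 0.23 (4.61e-05) and Wnt7a by 1.12 ± 0.15 (0.000271), all 3 in both backgrounds. Wnt3a was scarce, at 0.274 to 0.836 CPM with CT99021 and 1.22 to 5.16 CPM without. The count of 5 became 3 without any 1 of CT99021 replicate 2, Control replicate 2, GW3965 replicate 1 and GW3965 replicate 2. The 2 ligands that rose, Wnt6 and Wnt10a, did so in the main effect and not in both backgrounds.

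Among transcription factors, falls outnumbered rises. Of 299 listed factors 273 were expressed enough to be tested; 33 rose (12.1%) and 81 fell (29.7%), and in both backgrounds 12 rose and 40 fell.

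The Tcf/Lef genes split. Sp5, a zinc-finger factor induced by Wnt signals, had 13.8, 87.7 and 130 CPM with CT99021 and 2.80, 11.4 and 14.5 CPM without. It was higher in all 6 pairs, by 0.92 in replicate 3 of the control background and by 2.25 to 3.16 in the other 5. Its log2 fold change was 2.69 ± 0.25 (adjusted p = 3.31e-05). Lef1 had 53.7, 94.5 and 124 CPM with CT99021 and 16.7, 27.2 and 34 CPM without, and Tcf7 had 23.1, 37.7 and 49.9 CPM and 8.19, 16.3 and 17.5 CPM. For neither did the arms overlap. Lef1 rose by 1.76 ± 0.13 (adjusted p = 7.5e-06) and Tcf7 by 1.40 ± 0.09 (3.68e-06). Tcf7l1, the member best known as a repressor, fell by 0.50 ± 0.08 (adjusted p = 0.000588), and Tcf7l2 fell by 0.46; both fell in both backgrounds. In the list of 16, 4 rose (25%, beside 19.6% of all genes) and 5 fell (31.2%, beside 16.6%). The 5 became 0 without the replicate term, 2 without GW3965+CT99021 replicate 2, and 3 without Control replicate 2, GW3965 replicate 1 or GW3965 replicate 2. Tcf7l1 had 15.0, 16.9 and 39.5 CPM with CT99021 and 24.5, 27.1 and 49.6 CPM without, with arms that overlapped.

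The 250 bases before the start of Sp5 are shown, as the window of a gene with a large rise that holds a Tcf/Lef word, with CTTTGAT in capitals (RefSeq promoter table, GRCm38.p6, plus strand, chr2:70474673-70474922). The first letter of the word lies 104 bases before the start.

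Sp5: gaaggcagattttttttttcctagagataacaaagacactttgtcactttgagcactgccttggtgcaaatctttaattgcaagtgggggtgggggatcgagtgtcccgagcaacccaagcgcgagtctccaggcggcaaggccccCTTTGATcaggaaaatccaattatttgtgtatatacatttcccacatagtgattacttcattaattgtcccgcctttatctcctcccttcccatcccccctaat

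CTTTGAT, read on both strands, occurred in 2.22% of the windows of tested genes and 3.21% of all 32851 windows of that table. A window was present for 10634 of the 15608 tested genes. A match in these letters is a description and not a binding site. Among the other named genes Edar, Stra6, Lamp2 and Npc2, which rose, and Rgs12, which fell, also had the word in their window.

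In a list of 15 factors of ventral and lateral progenitor domains, 7 fell (46.7%) and 3 rose (20%), with a median log2 fold change of -0.23, and 3 fell in both backgrounds. The count of 7 was 2 without the replicate term, 4 without the libraries numbered 1 and 3 without those numbered 2. Olig2, a bHLH factor of motor neuron and oligodendrocyte progenitors, had 0.957, 2.86 and 5.56 CPM with CT99021 and 5.18, 10.5 and 26.9 CPM without. It fell by 2.09 ± 0.19 (4.26-fold lower, adjusted p = 2.99e-05), in all 6 pairs though the arms overlapped slightly, and the neighbouring gene Olig1 fell by 1.91 ± 0.29 (0.000474). Nkx2-2, which marks a ventral stripe next to the floor plate, had 5.12, 6.33 and 9.10 CPM with CT99021 and 10.7, 12.2 and 14.3 CPM without, and fell by 0.87 ± 0.12. Olig2 and Nkx2-2 also passed without the replicate term, and Olig1 did not. Nkx6-1, Gli2 and Gli3 rose in the main effect by 0.60, 0.52 and 0.35, and none of them in both backgrounds.

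Neurog2, a proneural bHLH factor needed for midbrain dopaminergic neurons, was higher. It had 4.70, 10.4 and 29.6 CPM with CT99021 and 2.53, 3.66 and 6.28 CPM without, and rose by 1.84 ± 0.20 (adjusted p = 6.89e-05). All 6 of its pairs pointed 1 way, while the lowest and highest libraries of the arms overlapped. Ascl4, a bHLH gene named here after its values were seen, had 138 reads with CT99021 and 19 without.

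Most Sox factors fell: 11 of 15 did (73.3%, beside 16.6% of all genes) and 0 rose, with a median of -0.36, and 6 fell in both backgrounds. Sox8, a factor of glial progenitors, had 6.0, 11.7 and 12.4 CPM with CT99021 and 15.9, 23.6 and 28.0 CPM without. Sox3, which with Sox1 and Sox2 maintains neural progenitors, had 3.65, 5.50 and 7.19 CPM with CT99021 and 8.19, 11.1 and 14.1 CPM without. Neither gene's arms overlapped. They fell by 1.10 ± 0.09 (adjusted p = 1.16e-05) and 0.97 ± 0.11 (0.000108). Sox1 fell by 0.72 ± 0.06 and Sox2, the pan-progenitor factor, by 0.31 ± 0.05; both needed the replicate term to pass. The count of 11 was 3 without that term, 6 without the libraries numbered 1 and 7 without those numbered 2. Of 6 neural progenitor markers, a list that also holds Sox1 and Sox2, 5 fell, among them Nes, which encodes nestin, by 0.41 ± 0.08. That count was 0 without the replicate term and 3 without the libraries numbered 2. The summed levels are given above, and the part of cell composition in the Sox result was not tested.

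Within the Myc network, whose members bind the E-box as partners of Max, 6 of 13 fell (46.2%), each of them in both backgrounds, and 1 rose. Mycl1, which encodes L-Myc, had 24.8, 40.0 and 48.3 CPM with CT99021 and 62.6, 96.0 and 123 CPM without. Mnt, a Max partner that represses Myc targets, had 23.2, 31.7 and 40.0 CPM with CT99021 and 54.5, 62.3 and 86.4 CPM without. Both were separated without overlap. Mycl1 fell by 1.26 ± 0.09 (2.40-fold lower, adjusted p = 7.87e-06) and Mnt by 0.95 ± 0.08 (1.94e-05). Among the other repressive partners of Max, Mxd4 fell by 1.07 ± 0.13, Mxi1 by 0.69 ± 0.05 and Mxd1 by 0.57. Myc itself, at 27.7, 41.1 and 45.7 CPM with CT99021 and 40.7, 63.0 and 79.1 CPM without, fell by 0.59 ± 0.10 (adjusted p = 0.000957), but not without the replicate term. Max was the 1 that rose, by 0.22. Without the replicate term 4 of the 6 fell, and without the libraries of any 1 replicate number at least 6.

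FoxO factors are excluded from the nucleus by AKT. Of 7 tested FoxO and MiT/TFE factors 3 fell (42.9%, beside 16.6% of all genes) and 0 rose. The count of 3 was 1 without the replicate term and 2 without the libraries numbered 2. Foxo4 fell by 0.67 ± 0.08 (adjusted p = 0.00014), Foxo3 by 0.48 ± 0.08 (0.000751) and Foxo6 by 0.52 ± 0.12 (0.00652), of which Foxo4 alone passed without the replicate term. Foxo1 had a log2 fold change of 0.17 ± 0.08 and Tfeb, a regulator of lysosomal genes, of -0.12 ± 0.13, and neither passed (adjusted p = 0.117 and 0.5). The median of the 7 was -0.48.

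**Figure D3:**
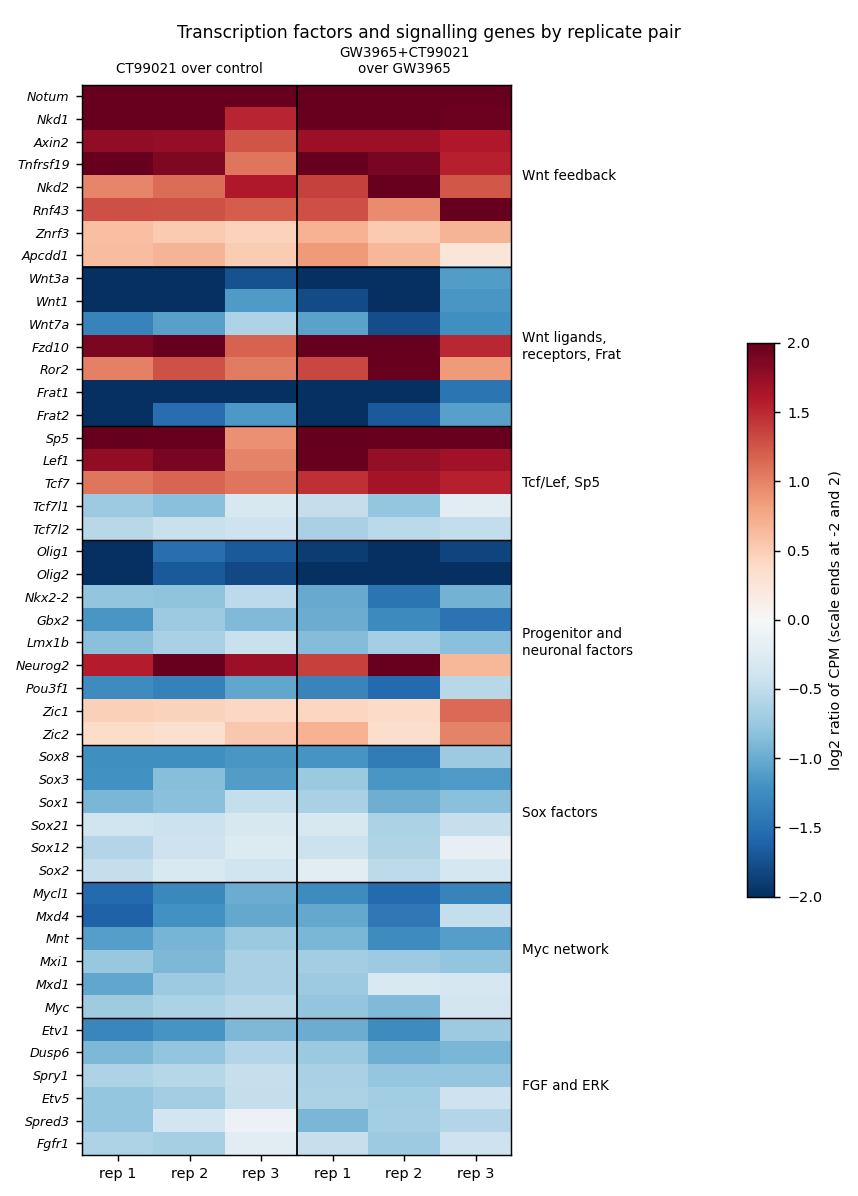
Log2 ratios of CPM with over without CT99021 for 47 genes of the transcription factor and signalling lists in the 6 replicate pairs, 3 for CT99021 over control and 3 for GW3965+CT99021 over GW3965 (red above 0, blue below, colours ending at -2 and 2). The genes shown were picked after their values were seen, to display the families in the text. Every row keeps 1 colour across both backgrounds, and the pairs numbered 3 are paler in many rows, as for Sp5 and Lef1.

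Signalling genes were called about as often in either direction: 63 of 290 tested rose (21.7%) and 68 fell (23.4%), and 21 rose and 35 fell in both backgrounds. Genes of FGF and ERK feedback mostly fell where they changed: 11 of 25 fell (44.0%) and 5 rose (20%), with a median of -0.16. Dusp6, the phosphatase that switches off ERK and is a readout of FGF activity, had 206, 241 and 311 CPM with CT99021 and 328, 423 and 545 CPM without. Etv1 and Etv5, ETS factors induced by FGF, had 22.7, 30.3 and 41.1 CPM and 131, 139 and 155 CPM with CT99021, and 53.1, 65.4 and 76.9 CPM and 207, 219 and 225 CPM without. In these 3 genes no library with CT99021 reached the lowest library without it. They fell by 0.75 ± 0.05 (adjusted p = 5.48e-06), 1.002 ± 0.07 (5.93e-06) and 0.55 ± 0.04 (9.94e-06). Spry1, a Sprouty inhibitor of receptor tyrosine kinases, fell by 0.58 ± 0.05, and Fgfr1 by 0.45. The 5 that rose included the ligands Fgf8, Fgf17 and Fgf15, at 1.27, 0.54 and 0.26, none of them in both backgrounds; this count was 2 without GW3965 replicate 1, 3 without Control replicate 1 or Control replicate 2, and 0 without the replicate term. Without that term 5 of the 11 fell.

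In the insulin, AKT and mTOR list, 12 of 42 fell (28.6%) and 10 rose (23.8%), with a median of 0.02, and 9 fell and 3 rose in both backgrounds. Receptors and their adaptors were among the falls. Igf1r, the receptor for insulin-like growth factors, had 113, 162 and 223 CPM with CT99021 and 241, 285 and 405 CPM without. Irs2, the adaptor that passes the signal on, had 44.8, 54.4 and 70.6 CPM with CT99021 and 91.4, 97.5 and 138 CPM without. Both were free of overlap, and they fell by 0.84 ± 0.06 and 0.89 ± 0.07 (adjusted p = 8.74e-06 for each). The insulin receptor Insr fell by 0.45 ± 0.06 and the catalytic subunit Pik3ca by 0.47 ± 0.05. Among the genes that rose were Akt2, by 0.39, and Rptor, a subunit of mTOR complex 1, by 0.38, whereas Rictor, a subunit of mTOR complex 2, fell by 0.38. Without the replicate term 5 fell and 0 rose.

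The BMP and TGF-beta list had 13 of 36 members higher (36.1%) and 4 lower (11.1%), with a median of 0.04. Bmp2, a ligand, had 4.29, 8.92 and 13.3 CPM with CT99021 and 1.64, 2.64 and 7.09 CPM without, and rose by 1.48 ± 0.15 (adjusted p = 4.91e-05). Tgfb2 had 33.8, 49.9 and 80.1 CPM with CT99021 and 20.5, 24.4 and 39.5 CPM without, and rose by 0.96 ± 0.13 (0.000298). These were the 2 members that rose in both backgrounds, and the arms overlapped in each. The count of 13 was 8 without GW3965 replicate 1, 2 without all libraries numbered 1, and 1 without the replicate term. Mesenchyme markers rose alongside: 5 of 8 passed, with summed levels of 358 to 3822 CPM with CT99021 and 275 to 2891 CPM without. The median log2 ratio of that list ran from 0.03 in replicate 1 of the control background to 1.58 in replicate 2 of the GW3965 background. Its transcription factor Twist1 rose by 1.17 ± 0.18 in both backgrounds, and Col1a2 and Col3a1, collagen genes, by 0.71 ± 0.21 and 0.82 ± 0.25; neither passed without Control replicate 2, GW3965 replicate 1 or GW3965 replicate 2, nor Col3a1 without GW3965 replicate 3. The count of 5 was 2 without any of those 3 libraries, 3 without GW3965 replicate 3, and 0 without the replicate term. The part of mesenchymal cells in the BMP result was not tested.

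Smaller signalling lists gave single genes. Ctgf, a secreted matrix protein and YAP target, had 6.52, 16.2 and 33.0 CPM with CT99021 and 39.4, 52.9 and 88.3 CPM without, and fell by 1.78 ± 0.25 (adjusted p = 0.000358). Of 24 Hippo list genes 7 fell (29.2%) and 3 rose (12.5%; 5 rose without Control replicate 3), and without the replicate term 2 fell and 0 rose. In the Notch list 5 of 22 fell (22.7%, beside 16.6% of all genes) and 0 rose, led by Lfng, a glycosyltransferase that modifies Notch, at -0.83 ± 0.14. None of them fell without the replicate term, where the adjusted p of Lfng was 0.0555; with Lars2 left out of library sizes 8 fell. Ptch1, a Hedgehog receptor, fell by 0.52 ± 0.08, though not without the replicate term.

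**Figure D4:**
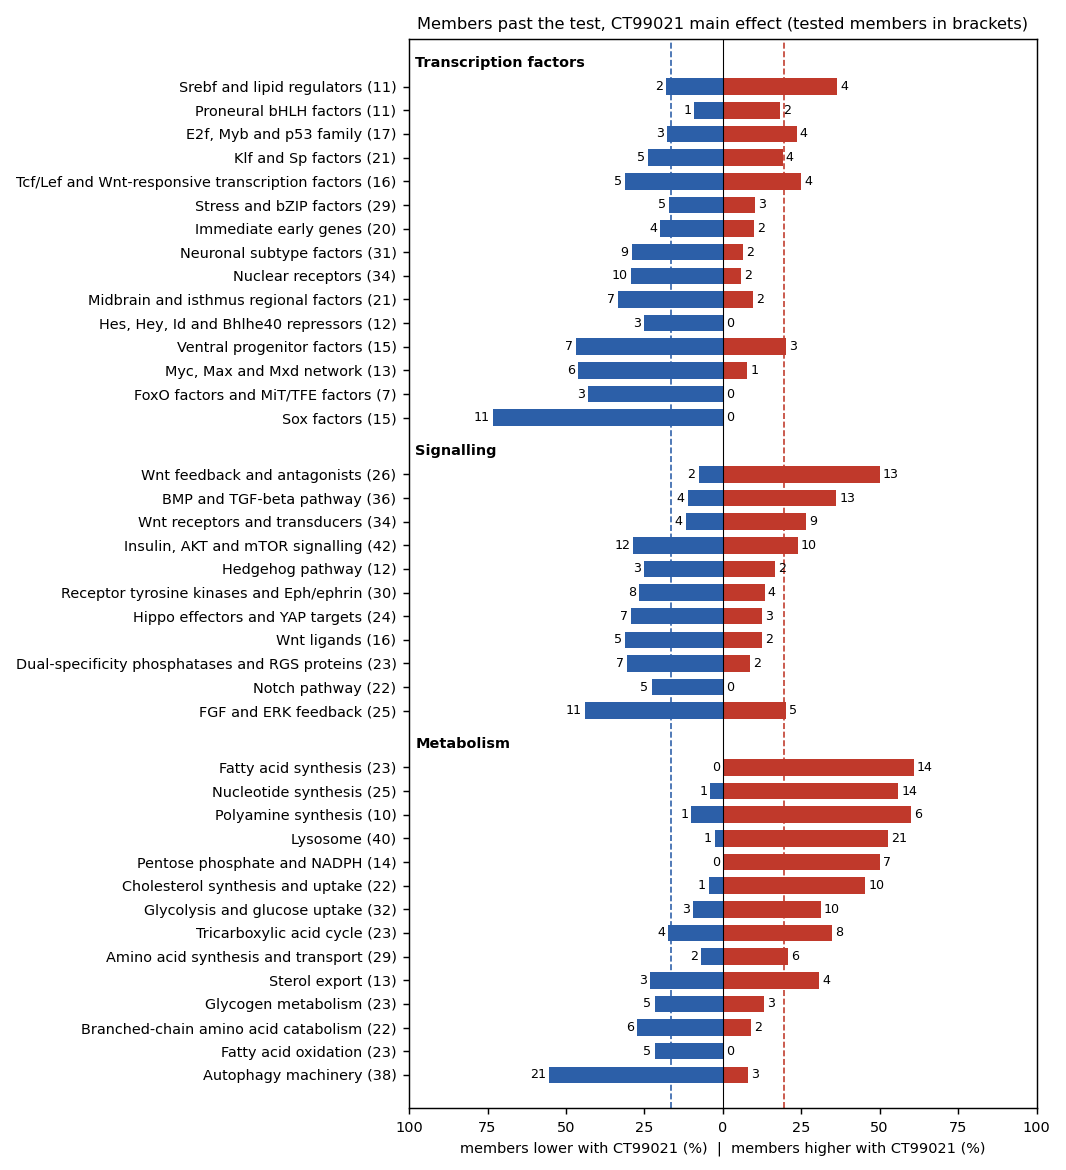
For each list of transcription factors, signalling genes and metabolic genes, the share of tested members that were lower with CT99021 (blue, to the left) and higher (red, to the right), with the number of members at each bar's end and the number tested in brackets. Dashed lines mark the shares over all genes tested, 16.6% lower and 19.6% higher. Among the lists drawn, which leave out the cell type markers, Sox factors and autophagy machinery reach furthest to the left, and fatty acid, polyamine and nucleotide synthesis furthest to the right.

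With the replicate term metabolic genes leaned upward: 108 of 337 tested rose (32.0%, beside 19.6% of all genes) and 53 fell (15.7%, beside 16.6%). In both backgrounds 49 rose and 22 fell. Shares of 45.5% to 60.9% rose in the lists of fatty acid, cholesterol, nucleotide and polyamine synthesis, of pentose phosphate and NADPH, and of the lysosome. Without the replicate term the rises in these lists, in this order, were 5, 4, 1, 0, 0 and 0, and autophagy had 12 falls. In the pentose phosphate and NADPH list 7 of 14 rose (50%) and 0 fell, and 1 rose in both backgrounds. Amino acid synthesis and transport stood near the share of all genes, with 6 of 29 higher (20.7%) and 2 lower (6.90%); the count of 6 was 11 without CT99021 replicate 3, 13 without GW3965 replicate 3, and 1 without the replicate term. Among the metabolic lists the most falls were in autophagy.

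Autophagy, the delivery of cell contents to the lysosome, had 21 of 38 genes lower (55.3%) and 3 higher (7.89%), with a median of -0.21, and 13 fell in both backgrounds. Atg13, a subunit of the complex that starts autophagy, had 13.9, 15.8 and 20.1 CPM with CT99021 and 35.1, 43.2 and 52.0 CPM without. Nbr1, a cargo receptor, had 80.4, 91.3 and 128 CPM with CT99021 and 166, 172 and 220 CPM without. Bnip3l, a receptor for the removal of mitochondria, had 73.1, 81.7 and 101 CPM with CT99021 and 138, 147 and 221 CPM without. The 6 libraries of each arm stood clear of the others in all 3 genes. Atg13 fell by 1.34 ± 0.06 (2.54-fold lower, adjusted p = 2.77e-07), with pair differences from -1.53 to -1.33. Nbr1 fell by 0.85 ± 0.04 (5.4e-07) and Bnip3l by 0.90 ± 0.06 (4.12e-06), and the initiating kinase Ulk1 by 0.54 ± 0.05 (2.38e-05). This list had 12 falls without the replicate term and 16 without the libraries numbered 1 or those numbered 2.

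Lysosomal genes went the other way in the main effect, with 21 of 40 higher (52.5%) and 1 lower and a median of 0.21. The changes were small and the count depended on the fit: 2 rose in both backgrounds, 8 rose without the libraries numbered 1, 4 without those numbered 2, and 0 without the replicate term. Lamp1, a lysosomal membrane protein, had 391, 423 and 542 CPM with CT99021 and 311, 344 and 482 CPM without, and rose by 0.34 ± 0.05 (adjusted p = 0.000339). Hexa, a lysosomal hydrolase, rose by 0.43 ± 0.07. The 1 that fell was Ctsf, a cathepsin, by 0.79 ± 0.08.

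Many genes of nucleotide synthesis rose: 14 of 25 rose (56.0%) and 1 fell (4%), with a median of 0.25, and 9 rose in both backgrounds. Atic, which completes the purine ring, had 68.7, 88.2 and 95.5 CPM with CT99021 and 45.2, 65.8 and 73.1 CPM without. Nme1, a nucleoside diphosphate kinase, had 98.8, 166 and 186 CPM with CT99021 and 70.0, 131 and 144 CPM without. In both genes the arms overlapped and every pair was higher with CT99021. Atic rose by 0.53 ± 0.04 (adjusted p = 1.55e-05) and Nme1 by 0.45 ± 0.05 (0.000113). Ppat, the entry enzyme of purine synthesis, rose by 0.51 ± 0.06, and Uck2 of pyrimidine salvage by 0.51 ± 0.05. In polyamine synthesis 6 of 10 rose and 1 fell; Srm, spermidine synthase, had 58.7, 79.2 and 96.1 CPM with CT99021 and 26.8, 50.6 and 66.7 CPM without, and rose by 0.77 ± 0.10 (0.000194). Amd1 and Amd2 held identical counts and are 1 measurement entered as 2 of the 6. Without the replicate term 1 nucleotide gene and 0 polyamine genes rose, and without the libraries of replicate number 1 these counts were 13 and 5.

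Atic, Nme1 and the lysosomal gene Lamp1 carry the E-box CACGTG, the word read by Myc, Max and MiT/TFE factors, just before their start. The 250 bases upstream of Atic, Nme1 and Lamp1 are shown with the E-box in capitals, as examples from 2 lists with many rises (RefSeq promoter table, GRCm38.p6; Atic chr1:71556906-71557155 plus strand, Nme1 chr11:93968273-93968522 minus strand, Lamp1 chr8:13158911-13159160 plus strand).

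Atic: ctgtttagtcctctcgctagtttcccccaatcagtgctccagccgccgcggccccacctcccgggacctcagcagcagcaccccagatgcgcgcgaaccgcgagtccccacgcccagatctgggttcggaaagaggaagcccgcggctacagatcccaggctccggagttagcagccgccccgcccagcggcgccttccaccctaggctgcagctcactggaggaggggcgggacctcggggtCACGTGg

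Nme1: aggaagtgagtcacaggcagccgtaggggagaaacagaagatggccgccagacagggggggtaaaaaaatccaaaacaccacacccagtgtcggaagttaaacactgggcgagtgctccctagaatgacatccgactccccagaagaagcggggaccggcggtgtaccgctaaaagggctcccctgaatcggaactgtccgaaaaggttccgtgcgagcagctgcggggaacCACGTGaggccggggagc

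Lamp1: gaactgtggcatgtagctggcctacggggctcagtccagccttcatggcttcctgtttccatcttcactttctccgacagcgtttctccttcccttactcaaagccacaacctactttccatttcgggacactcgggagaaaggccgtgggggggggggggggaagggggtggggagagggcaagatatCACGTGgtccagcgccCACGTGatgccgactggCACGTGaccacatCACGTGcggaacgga

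The word starts 7 bases before the start of Atic, 18 before that of Nme1, and 61, 45, 28 and 15 before that of Lamp1. It is its own reverse complement. CACGTG occurred in 7.96% of the windows of tested genes and 6.02% of all windows. Genes that fell also held it, among them Mnt, Mxd4, Irs2, Pdk2 and Sox8, so that its presence does not go with 1 direction among the genes named here.

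Genes of lipid synthesis rose as well. In the fatty acid list 14 of 23 rose (60.9%) and 0 fell, with a median of 0.28, and in the cholesterol list 10 of 22 rose (45.5%) and 1 fell, with a median of 0.24. Scd1, a stearoyl-CoA desaturase, had 139, 181 and 255 CPM with CT99021 and 92.0, 120 and 179 CPM without. Fasn, fatty acid synthase, had 555, 840 and 1130 CPM with CT99021 and 421, 566 and 721 CPM without. Both overlapped between arms and were higher in 6 of 6 pairs. They rose by 0.68 ± 0.07 (adjusted p = 3.96e-05) and 0.57 ± 0.07 (0.000177), and Lss, the enzyme that closes the sterol ring, by 0.74 ± 0.12 (0.000858). Without the replicate term 5 fatty acid and 4 cholesterol genes rose. Srebf1, the transcription factor of fatty acid synthesis and a liver X receptor target, rose by 0.26 ± 0.07 in the main effect (adjusted p = 0.0162), with 0.12 ± 0.09 over GW3965 and 0.42 ± 0.09 over control; its call was lost when the libraries numbered 1, those numbered 2 or the replicate term were left out. Lpin1, a phosphatidate phosphatase and co-regulator of fat oxidation, had 9.09, 13.8 and 23.6 CPM with CT99021 and 29.8, 32.1 and 59.6 CPM without, and fell by 1.24 ± 0.13 (5.64e-05). The co-activator gene Ppargc1a fell by 0.82 ± 0.13 and its relative Pprc1 rose by 0.67 ± 0.10.

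Of 32 genes of glucose uptake and glycolysis 10 rose (31.2%) and 3 fell (9.38%; 5 fell without Control replicate 3), with a median of 0.16. These counts were 2 and 2 without the replicate term. Slc16a1, a lactate and pyruvate transporter, had 50.6, 61.6 and 68.4 CPM with CT99021 and 28.7, 34.9 and 39.5 CPM without, which did not overlap, and rose by 0.89 ± 0.08 (adjusted p = 2.08e-05). Hk2, a hexokinase, rose by 0.75 and Pfkfb3, which makes the activator of phosphofructokinase, by 0.59 ± 0.07; Pfkfb3 did not pass without that term. Pdk2, a kinase that shuts pyruvate dehydrogenase, had 3.88, 4.73 and 10.8 CPM with CT99021 and 11.4, 13.7 and 22.6 CPM without, and fell by 1.26 ± 0.13 (4.51e-05). Of 23 genes of glycogen metabolism 3 rose (13.0%) and 5 fell (21.7%), and 0 were called in both backgrounds, where 12.1% of all genes were. The count of 5 was 1 to 3 without any 1 library other than CT99021 replicate 2, GW3965+CT99021 replicate 3 and GW3965 replicate 3, and without the replicate term 0 rose and 0 fell. Gys1, the glycogen synthase that this kinase is named for, had a log2 fold change of -0.06 ± 0.11 (adjusted p = 0.733), at 29.5, 44.3 and 61.7 CPM with CT99021 and 44.3, 49.6 and 50.9 CPM without.

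Breakdown of branched-chain amino acids held a few marked falls. Bckdha, a subunit of the committing dehydrogenase, had 10.8, 12.2 and 14.6 CPM with CT99021 and 23.9, 25.9 and 33.3 CPM without. Auh, an enzyme of leucine breakdown, had 3.07, 4.63 and 6.64 CPM with CT99021 and 9.58, 10.9 and 12.5 CPM without. There was no overlap in either. They fell by 1.05 ± 0.08 (adjusted p = 7.36e-06) and 1.13 ± 0.13 (9.72e-05), and both passed without the replicate term, while in the list of 22 as a whole 6 fell (27.3%) and 2 rose (9.09%), and without that term 2 fell. Fatty acid oxidation had 0 of 23 genes higher and 5 lower (21.7%), none of them in both backgrounds and 0 of them without the replicate term.

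**Figure D5:**
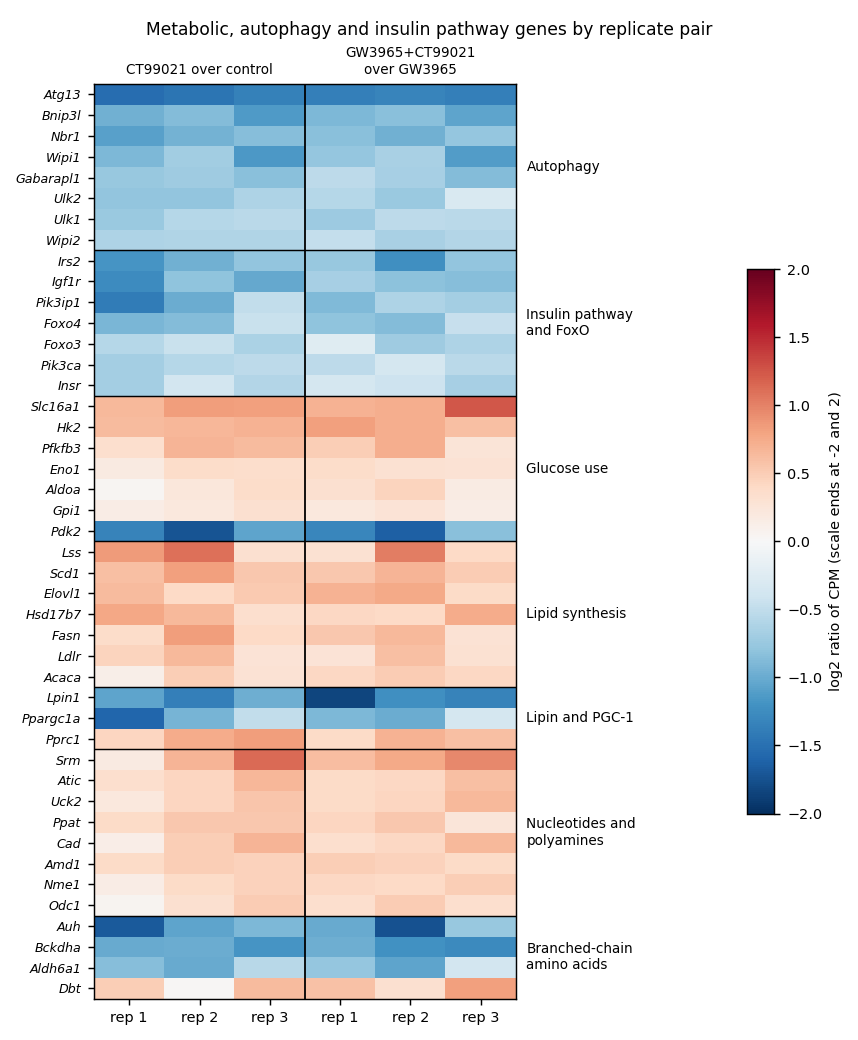
Log2 ratios of CPM with over without CT99021 for 44 metabolic, autophagy and insulin pathway genes in the 6 replicate pairs, 3 for CT99021 over control and 3 for GW3965+CT99021 over GW3965, on the colour scale that ends at -2 and 2. The genes were picked after their values were seen. Autophagy genes and the insulin pathway genes drawn are blue in each pair. The genes of lipid, nucleotide and polyamine synthesis are red in each pair, the palest being Odc1 at 0.06 in replicate 1 of the control background.

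Outside the lists, the largest changes in both backgrounds included genes of the cell surface. Tnfrsf11b, the decoy receptor osteoprotegerin, had 2.87, 7.57 and 12 CPM with CT99021 and 0.550, 1.13 and 2.28 CPM without, and rose by 2.72 ± 0.41 (adjusted p = 0.000493). Cdh3, P-cadherin, rose by 2.33 ± 0.30, Mybpc1, a myosin-binding protein, by 2.27 ± 0.21, Stra6, a retinol transporter, by 2.10 ± 0.29, Il6ra, the interleukin 6 receptor, by 2.08 ± 0.26, and Edar, the ectodysplasin receptor, by 2.04 ± 0.31. Nipal3, a predicted magnesium transporter (chromosome 4, listed position 135004815), had 3.44, 5.29 and 7.05 CPM with CT99021 and 24.2, 27.9 and 34.2 CPM without. The gap between its arms was wide and even across replicate numbers, with pair differences from -2.77 to -2.14. It fell by 2.43 ± 0.10 (5.40-fold lower, adjusted p = 1.36e-07). Fn3k, fructosamine-3-kinase, fell by 2.19 ± 0.31, the transcription factor gene Meox1 by 2.02 ± 0.29 and Tcp11 by 2.06 ± 0.32, and the RIKEN loci 1700084C01Rik and A930001N09Rik by 2.03 ± 0.23 and 1.90 ± 0.10. Meox1, Tcp11 and Edar did not pass without the replicate term. Fn3k and Tcp11 were scarce, with medians of 0.327 and 0.297 CPM with CT99021 and 1.58 and 1.18 CPM without. Several of the genes that rose were also scarce without CT99021. Their medians there were 0.614 CPM for Mybpc1, 0.813 for Cdh3, 1.06 for Edar and 1.31 for Stra6.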

How the data were processed

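The values analysed are counts: the authors deposited, per feature and library, the number of reads as whole numbers in a single table, without normalisation. The submitters' processing notes list Bowtie and mm9. The sources used here do not state the counter, its annotation, whether strand was used or how multiply mapping reads were treated, so overlapping, antisense and near-identical genes are uncertain. Of the rows, 23965 were genes and 1217 repeat families, which took 0.196% to 0.643% of counts and were left out of library sizes and tests. Positions are mm9 as listed, and the end of the gene they mark is not stated. Libraries were prepared from 0.5 µg of RNA, per the labels' protocols.

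The main effect was fitted in edgeR 4.0.16 (R 4.3.3) with TMM factors and filterByExpr by the quasi-likelihood F test, with replicate number, GW3965 and CT99021 as additive terms and no interaction. The backgrounds were tested in a fit with 1 mean per group plus replicate number. A gene passed at an adjusted p under 0.05. Errors are SE of the fitted log2 fold change. Log2 ratios of pairs used a prior count of 2. Scripts were tested on simulated data.

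Replicate numbers were treated as pairing the libraries, on the data and not the labels: deviations from group means of the 18 pairs with 1 number correlated at 0.496 to 0.828 across genes, against -0.677 to 0.241 for other pairs. The biological coefficient of variation was 12.6% with the replicate block and 31.7% without it. Within every group, libraries differed by more than sampling noise (chi-square per gene 29.6 to 145).

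The comparison, gene lists and naming rule were chosen with earlier results of these data known. Named genes were the 10 largest rises and falls past all tests at a mean of 1 CPM or more and alike in 6 of 6 pairs, up to 4 members of each list by p, and a set of genes taken whatever their values; other genes named were chosen after their values were seen. Alternatives were no replicate block, the averaged effect, DESeq2 1.42.0, limma-voom 3.58.1, RLE size factors, no filter, Lars2 out of library sizes, a term for a set of 5 libraries that stood apart (those numbered 3 and GW3965+CT99021 replicate 2), the 7 other libraries alone, each background alone, and libraries left out.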

Additional observations from a re-analysis of the deposited data

Results flagged for a closer look

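In 70 series of 6 libraries checked for a value far from the other 5, 4 held one by Dixon's criterion, and chance gives about 1 in 20. Il6ra had its lowest level without CT99021 in Control replicate 3, at 1.87 CPM. Edar was at 0 CPM in GW3965 replicate 3, the lowest library without CT99021. Wnt3a had its lowest level with CT99021 in CT99021 replicate 3, at 0.274 CPM. Lars2 reached 7.95e+04 CPM in CT99021 replicate 1, where the median of the 6 libraries with CT99021 was 956 CPM and that of the 6 without was 784 CPM; its log2 fold change was 1.03 ± 1.17 (edgeR adjusted p = 0.524).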

How the results depend on the processing

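The counts rest on the replicate block. With no replicate block the main effect called 968 genes, 456 higher and 512 lower, and 9 in both backgrounds, 0 higher and 9 lower; of the 191 genes named by rule, 108 did not pass. Without the 4 libraries numbered 1 the main effect called 3135 genes (1696 higher, 1439 lower) and 53 in both backgrounds (14 and 39), and 17 named genes did not pass. Without those numbered 2 the main effect called 2482 (1223 and 1259) and 62 in both backgrounds (10 and 52), and 30 named genes did not pass. Without those numbered 3, 1303 genes fell in both backgrounds. The batch term for the set of 5 gave 1180 in both (655 and 525). The 7 libraries outside that set gave 60 calls of a difference between backgrounds, beside 0 otherwise. Leaving out 1 library gave 4517 to 5912 calls (2453 to 3133 higher, 2064 to 2834 lower), 596 to 2087 in both backgrounds (266 to 1129 higher, 330 to 958 lower) and 0 to 0 for the difference. The causes were not tested beyond the smaller number of libraries. No named gene changed sign in an alternative if it passed there or in the main fit. Signs of named genes that passed in neither were not checked. DESeq2, limma-voom, RLE factors, no filter, Lars2 left out of library sizes and the averaged effect kept each count over all genes within 1.5 times, but rises no longer outnumbered falls with Lars2 left out (2591 and 2995; in both backgrounds 825 and 1007) or with no filter (2575 and 2598; 730 and 836). Leaving Lars2 out gave a median log2 fold change over all genes of -0.017, beside 0.017. Counts of 5 or fewer in lists moved more: Notch falls were 8 with Lars2 left out, glycolysis falls 5 in DESeq2, glycogen falls 3 for the averaged effect, and Max did not pass with Lars2 left out or with no filter. Fitted alone, the backgrounds gave 2428 calls over GW3965 and 2685 over control, 1648 shared in direction. Low counts limit Frat1, Wnt3a, Fn3k, Tcp11, Tnfrsf11b, Mybpc1, Cdh3, Edar and Stra6, among others.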

Other observations

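Further families changed in part. Of 34 nuclear receptors tested 10 fell (29.4%, beside 16.6% of all genes) and 2 rose (5.88%, beside 19.6%), and without the replicate block 3 fell and 0 rose. Nr4a3, an immediate response factor, had 4.68, 4.87 and 5.80 CPM (lowest, median, highest) with CT99021 and 7.66, 11.8 and 14.4 CPM without, and fell by 1.03 ± 0.11 on the log2 scale (edgeR adjusted p = 8.06e-05). Rxrb, the shared partner of many nuclear receptors, fell by 0.41 ± 0.06, with arms of 38.6 to 48.4 CPM with CT99021 and 57.3 to 64.7 CPM without that did not overlap. Thra, a thyroid hormone receptor, fell by 0.39 ± 0.05 (not past the test without the replicate block). The list of E2f, Myb, retinoblastoma and p53 family genes stood near the shares of all genes. Of 17 tested 4 rose (23.5%, beside 19.6%) and 3 fell (17.6%, beside 16.6%), and 3 rose and 3 fell in both backgrounds. Without the replicate block 0 rose and 3 fell. The genes that fell were Rb1, by 0.54 ± 0.09, Rbl2, by 0.50 ± 0.05, and Trp53, by 0.25 ± 0.04. Each fell in both backgrounds and with no overlap. E2f4 rose by 0.37 ± 0.05, but did not pass without the replicate block. Ccnd1, a cyclin often described as a Wnt target, rose by 0.43 ± 0.09 (adjusted p = 0.00472) in 5 of 6 pairs, but not in both backgrounds. Ccnd1 did not pass without the replicate block or without the libraries numbered 2.

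Of 21 tested factors of midbrain and isthmus identity 7 fell (33.3%, beside 16.6% of all genes) and 2 rose (9.52%, beside 19.6%). In both backgrounds 2 fell. The count of 7 was 1 without the replicate block and 2 without the libraries numbered 2. Gbx2, the hindbrain-side factor of the midbrain-hindbrain border, had 1.48, 10.7 and 15.3 CPM with CT99021 and 4.35, 24.1 and 27.0 CPM without. It fell by 0.98 ± 0.13 (edgeR adjusted p = 0.000289), though its arms overlapped and it did not pass without the replicate block. Lmx1b, needed for dopaminergic progenitors, had 9.04, 11.6 and 15.3 CPM with CT99021 and 16.6, 18.5 and 25.2 CPM without, and fell by 0.66 ± 0.08 (0.000113). Pou3f1, a POU factor, fell by 1.15 ± 0.14 and Ebf3 by 0.60 ± 0.06 (Ebf3 not past the test without the replicate block). Zic1 and Zic2, zinc-finger factors of the dorsal neural tube, rose by 0.59 and 0.60, all 4 in both backgrounds. Of 5 neuron markers 3 fell and 1 rose. Mtap2, which encodes a microtubule protein of dendrites, had 519.9, 603 and 794 CPM with CT99021 and 821, 893 and 945 CPM without, and fell by 0.45 ± 0.07 (adjusted p = 0.000495) in both backgrounds, with no overlap and also without the replicate block. Dcx and Stmn2, markers of young neurons, fell by 0.34 ± 0.07 and 0.24 ± 0.06, and Tubb3 rose by 0.33 ± 0.07, each in the main effect, none in both backgrounds and none without the replicate block.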
